A study of Homo sapiens with 15 samples.

Results

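Collagen chains are the polypeptides that wind around one another in threes, or as copies of themselves, to form the collagen molecules of the extracellular matrix. They were chosen as every gene whose symbol is COL, a number, A and a number, which gave 41 chains of 17138 genes listed in the series, 40 of them among the 16382 genes of the MRC5 table and 38 among the 16076 genes of the H196 table. RNA-seq had been done on MRC5, an established human fetal lung fibroblast line, and on H196, an established human small cell lung cancer (SCLC) line of the non-neuroendocrine type, in 15 libraries that form 5 groups of 3. MRC5 cells were grown alone (MRC5_Mo), with the neuroendocrine SCLC line H69 (MRC5_CoH69) or with H196 (MRC5_CoH196), and H196 cells were grown alone (H196_Mo) or with MRC5 (H196_Co). In co-culture the 2 lines shared medium across a porous insert for a week, and the RNA is that of the cells in the well below. The labels name no genetic change or drug in any group. MRC5 cells are not fibroblasts taken from a tumor, and the insert keeps the lines from touching.

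The collagens divide by the structure they build. Fibrillar chains such as those of types I, III and V make the banded fibrils that carry tension in lung and scar tissue, type IV chains make the sheet-like network of basement membranes, and the remaining chains form beaded filaments, short-chain networks, anchoring fibrils, fibril-bound links (the FACIT group) or parts of the cell membrane. A collagen molecule needs its partner chains together: COL1A1 pairs with COL1A2, COL4A1 with COL4A2, COL5A1 with COL5A2, and COL6A1 with COL6A2 and a further chain such as COL6A3. Lung fibroblasts are the main source of fibrillar collagen in the lung. Of the 41 chains, 11 are fibrillar, 6 are of the basement membrane and 24 belong to the other types.

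The depth ranged from 18476890 to 19170560 counts per MRC5 library and from 16073597 to 17358349 per H196 library. Levels of different chains are compared in FPKM, which corrects for gene length and for the number of fragments sequenced. A count of 0 allows up to 3 counts in a library, which covers counting error only. MRC5 libraries carried the fibroblast list in full, with 10 of 10 markers (among them DCN, LUM and PDGFRA) above 1 FPKM in each library of each group, and 0 of 6 listed neuroendocrine markers were above 1 FPKM in every library of any MRC5 group. The summed level of those neuroendocrine markers was 0.83 to 1.18 FPKM in MRC5_Mo, 0.56 to 1.18 in MRC5_CoH69 and 0.66 to 1.14 in MRC5_CoH196. Of the 9 fibroblast markers listed for H196, FBLN1, S100A4 and VIM were above 1 FPKM in every library, and LUM, PDGFRA, FAP and TCF21 had at most 2 counts in any library. Although the study takes H196 as non-neuroendocrine, 4 of 8 listed neuroendocrine markers (CHGB, SYP, DLL3 and SCG2) were above 1 FPKM in every H196 library. Between replicates of a group the counts differed by more than sampling noise in every pair, so that no library was a copy of another.

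Collagen RNA was abundant in fibroblasts grown alone. The chains summed to 7835 ± 398 FPKM (SD, n = 3) in MRC5_Mo, or 1.37% ± 0.0756 (SD) of the FPKM of all genes. In MRC5_Mo, 24 of 40 chains were above 1 FPKM in every library and 10 had a mean of at least 100 FPKM. COL1A1 (2628 ± 106 FPKM), COL1A2, COL6A3, COL6A2 and COL4A2 led that order. In MRC5, 11 chains had too few counts to be tested. They were COL2A1, COL4A3, COL4A4, COL10A1, COL19A1, COL21A1, COL22A1, COL23A1, COL25A1, COL26A1 and COL28A1, with at most 14 counts and 0.11 FPKM in any MRC5 library. COL20A1 was listed for H196 alone, where it had at most 1 count.

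The first question was how the collagen of fibroblasts changed beside H196. The makeup of the collagen RNA shifted from fibrillar chains to the other types, mostly through a few abundant chains. Mean FPKM of COL1A1, COL1A2 and COL3A1 was 2628, 1974 and 260 in MRC5_Mo and 785, 1191 and 54.0 in MRC5_CoH196. For COL6A1, COL6A2 and COL6A3 the means were 291, 725 and 820 in MRC5_Mo and 413, 1222 and 918 in MRC5_CoH196. The fibrillar chains held 65.5% ± 0.256 (SD, n = 3) of the summed collagen FPKM in MRC5_Mo and 38.8% ± 1.025 in MRC5_CoH196. The chains of the basement membrane went from 6.69% ± 0.0882 to 11.6% ± 0.0130 and the other types from 27.8% ± 0.269 to 49.6% ± 1.04. The groups did not overlap in any of these shares, and the exact permutation p was 0.1 for each, the smallest that 3 against 3 libraries allow in a two-sided test. In FPKM, which is scaled to the fragments of each library and is not an absolute amount, the fibrillar sum was 5132 ± 276 in MRC5_Mo and 2245 ± 78.3 in MRC5_CoH196. The other types summed to 2180 ± 103 and 2872 ± 39.2 FPKM, and the basement membrane chains to 524 ± 22.3 and 674 ± 6.93. In bulk RNA, fewer cells of a kind and less RNA per cell cannot be told apart.

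**Figure D1:**
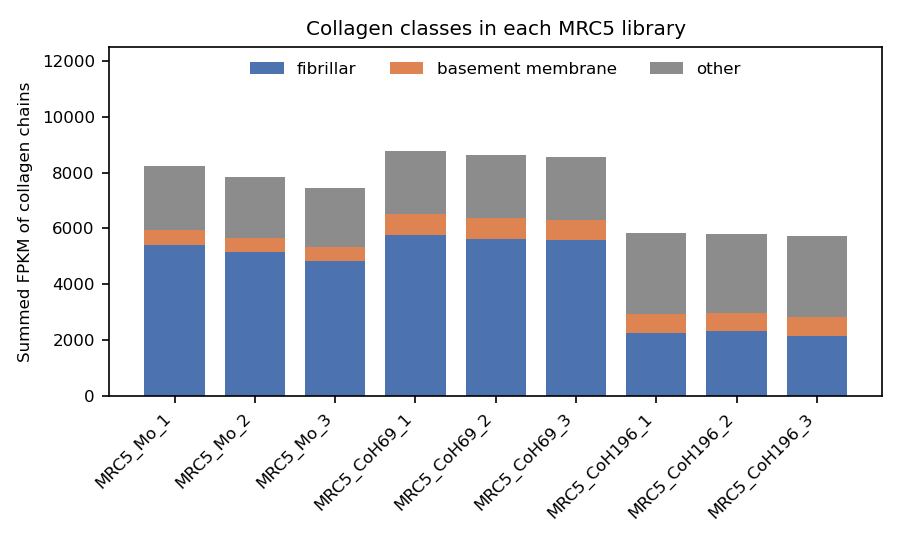
Summed FPKM (y axis) of fibrillar, basement membrane and other collagen chains, stacked, in each of the 9 MRC5 libraries (x axis, group and replicate). The fibrillar part has a mean of 5132 FPKM in MRC5_Mo, 5666 in MRC5_CoH69 and 2245 in MRC5_CoH196, and the part of the other types is the highest in MRC5_CoH196.

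Of the 29 chains that passed the filter, 7 rose and 4 fell in MRC5_CoH196 against MRC5_Mo (differentially expressed genes, DEGs, with a Benjamini-Hochberg adjusted p under 0.05 in edgeR and a log2 fold change above 0.58 in size). Those are 24.1% and 13.8% of the chains tested, beside 17.2% higher and 14.7% lower among all 12819 genes tested, so that neither share stood far from that of all genes. Among 10 fibrillar chains 3 fell and 1 rose, with a median log2 fold change of -0.54. Of the 4 chains of the basement membrane 1 rose and 0 fell, and of the 15 other chains 5 rose and 1 fell, with medians of 0.21 and 0.17. The median of all genes tested was -0.0030. With library totals alone in place of TMM factors, a scaling chosen after seeing the data, the median of all genes was -0.18 and the split was 3 higher and 8 lower. Of all 12819 genes tested, 1530 were then higher and 2978 lower, so the chains leaned the same way as genes at large.

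**Figure D2:**
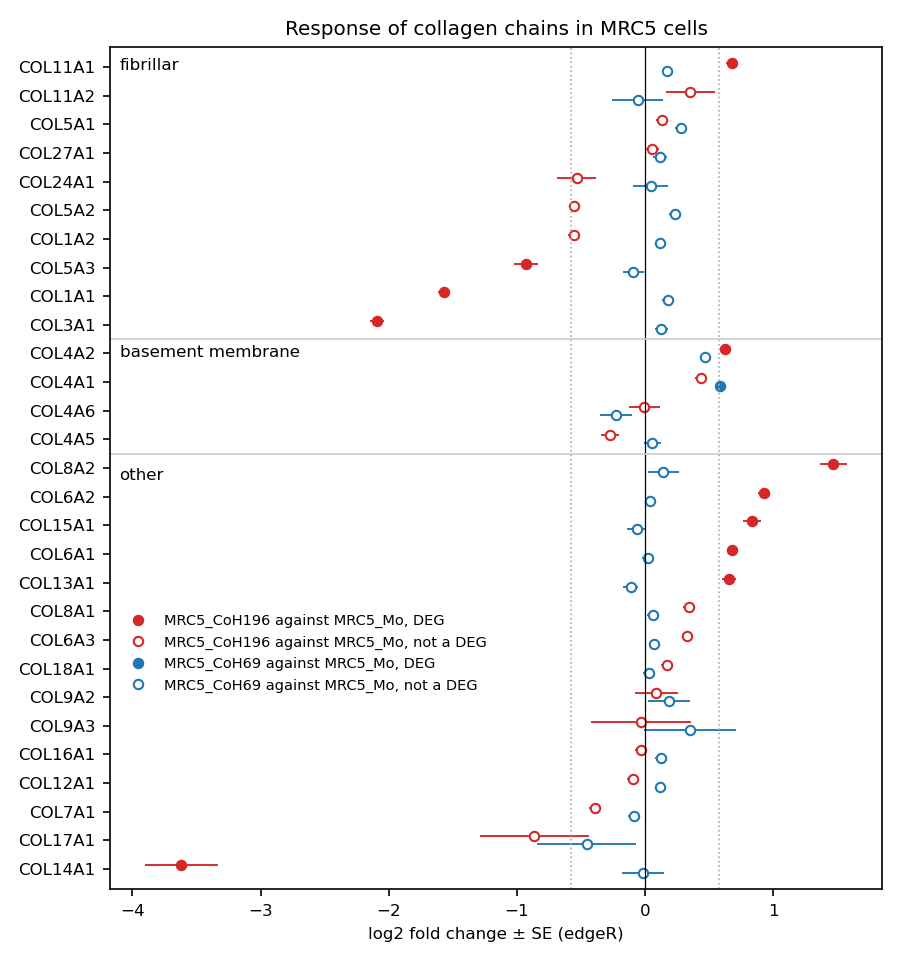
Log2 fold change with its SE (x axis) of the 29 tested collagen chains (y axis, by class) in MRC5_CoH196 (red) and MRC5_CoH69 (blue) against the same MRC5_Mo libraries, where filled points are DEGs and dotted lines mark 0.58 in either direction. Filled red points for COL14A1, COL3A1, COL1A1 and COL5A3 and an open one for COL17A1 (-0.86, not a DEG) lie beyond the left line, 7 red points lie beyond the right line, and among the blue points COL4A1 alone reaches it.

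Of the abundant fibrillar chains, COL1A1 and COL3A1 fell. COL1A1 (chromosome 17, 50184096 to 50201649, GRCh38.p13), which encodes the major chain of type I collagen, was at 2735, 2624 and 2524 FPKM in MRC5_Mo, at 3030.45, 2955 and 2837 in MRC5_CoH69 and at 809.8, 806 and 739 in MRC5_CoH196. The MRC5_CoH196 libraries were all far below the 6 others, and COL1A1 was 2.97-fold lower than in MRC5_Mo (log2 fold change -1.57 ± 0.04, SE, adjusted p = 3.4e-20). COL3A1 (chromosome 2, 188974373 to 189012746), the single chain of type III collagen, was at 283, 255 and 242 FPKM in MRC5_Mo, at 279, 265 and 301 in MRC5_CoH69 and at 53.9, 57.2 and 50.9 in MRC5_CoH196. It was 4.27-fold lower beside H196 (-2.09 ± 0.05, adjusted p = 5.92e-21) with no overlap between the groups. COL1A2 (chromosome 7, 94394895 to 94431227), the second chain of type I collagen, was at 2100, 1993 and 1828 FPKM in MRC5_Mo, at 2163, 2095 and 2124 in MRC5_CoH69 and at 1187, 1229 and 1156 in MRC5_CoH196. Its libraries did not overlap either, but its log2 fold change of -0.56 ± 0.04 (adjusted p = 2.82e-11) stayed under the limit on the fold change.

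Type V collagen, which sits inside type I fibrils and sets their width, changed unevenly. COL5A3 (chromosome 19, 9959561 to 10010532) was at 2.84, 2.48 and 2.54 FPKM in MRC5_Mo, at 2.45, 2.40 and 2.48 in MRC5_CoH69 and at 1.11, 1.18 and 1.41 in MRC5_CoH196, a log2 fold change of -0.93 ± 0.09 (adjusted p = 2.51e-09). COL5A2 was at 149, 146 and 138 FPKM in MRC5_Mo, at 166, 163 and 175 in MRC5_CoH69 and at 86.4, 89.7 and 86.2 in MRC5_CoH196, with -0.55 ± 0.04 (adjusted p = 1.14e-11). Both chains were below all libraries of the other groups beside H196, but COL5A2 did not pass the limit on the fold change. COL5A1 overlapped between MRC5_Mo (104, 101 and 90.35 FPKM) and MRC5_CoH196 (95.8, 98.4 and 94.9), and was at 117, 119.6 and 119 in MRC5_CoH69. Its log2 fold change beside H196 was 0.13 ± 0.05 (adjusted p = 0.0103), and turned to -0.04 with library totals alone. COL24A1, a chain known from bone and present here at under 1 FPKM in MRC5_Mo, had -0.53 ± 0.15 (adjusted p = 0.00251). Leaving out the third library of MRC5_Mo brought the number of fallen chains from 4 to 7, COL1A2 (-0.61) and COL5A2 (-0.58) among them.

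COL11A1 (chromosome 1, 102876473 to 103108580), a chain of the thin fibrils of cartilage that is also made by activated fibroblasts, was the fibrillar chain that rose. It was at 15.5, 16.3 and 15.3 FPKM in MRC5_Mo, at 17.1, 17.0 and 18.6 in MRC5_CoH69 and at 21.1, 22.9 and 21.8 in MRC5_CoH196. The 3 groups did not overlap, and the log2 fold change beside H196 was 0.68 ± 0.04 (adjusted p = 8.56e-13). It was 0.51 with library totals alone, 0.46 on log2(FPKM + 1) and 0.48 on log2(FPKM + 0.1), each under the limit. The remaining fibrillar chains, COL11A2 and COL27A1, had log2 fold changes of 0.36 ± 0.19 and 0.06 ± 0.05 and did not pass the test.

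**Figure D3:**
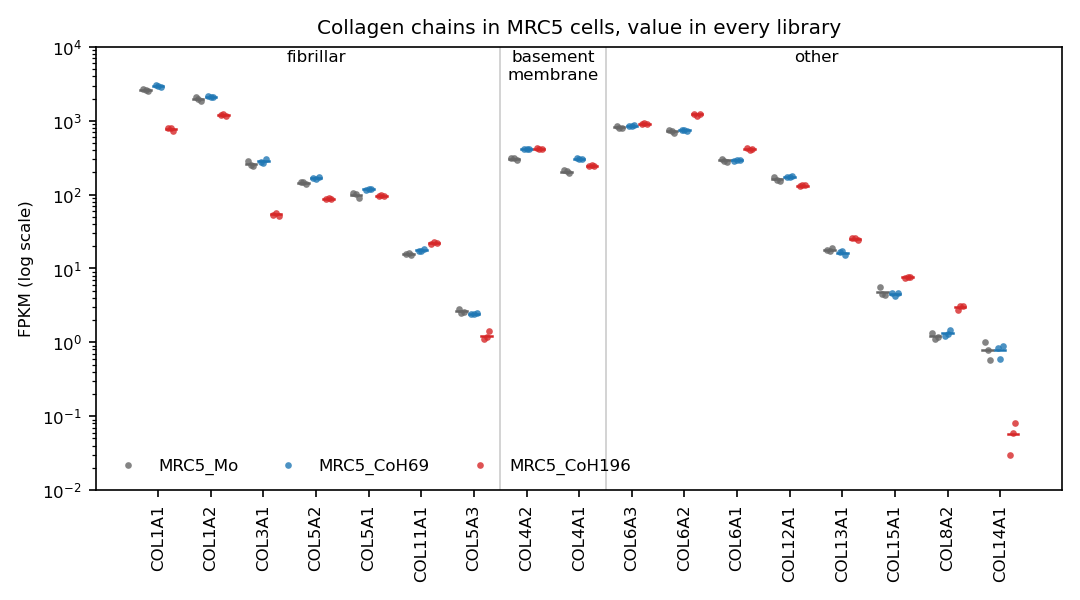
FPKM (y axis, log scale) of 17 collagen chains (x axis, by class and level) in each MRC5 library, as points, with the mean of each group of 3 as a bar. The red points of MRC5_CoH196 lie below the rest for COL1A1, COL1A2, COL3A1, COL5A2, COL5A3, COL12A1 and COL14A1, and above the rest for COL6A1, COL6A2, COL6A3, COL8A2, COL11A1, COL13A1 and COL15A1.

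Of the 3 chains of beaded filaments, COL6A1 and COL6A2 rose. Type VI collagen surrounds cells and links them to the fibrils. COL6A2 (chromosome 21, 46098071 to 46132849) was at 763, 718 and 693 FPKM in MRC5_Mo, at 747, 753 and 724 in MRC5_CoH69 and at 1244, 1166 and 1256 in MRC5_CoH196, which made it the most abundant collagen chain beside H196 by its mean of 1222 FPKM, with COL1A2 close by at 1191. It rose 1.90-fold (log2 fold change 0.93 ± 0.05, adjusted p = 2.39e-15). COL6A1 (chromosome 21, 45981770 to 46005048) was at 307, 288 and 277 FPKM in MRC5_Mo, at 289.7, 292 and 296 in MRC5_CoH69 and at 425, 402 and 413 in MRC5_CoH196, with 0.68 ± 0.04 (adjusted p = 3.55e-13). The MRC5_CoH196 libraries were above all others for both chains. COL6A3 was at 859, 811 and 789 FPKM in MRC5_Mo, at 842, 857 and 866 in MRC5_CoH69 and at 902, 937 and 915.5 in MRC5_CoH196, and its 0.33 ± 0.04 (adjusted p = 4.59e-08) was under the limit on the fold change.

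The short-chain collagen of type VIII, known from vessel walls and the corneal endothelium, held the largest rise among the 29 chains. COL8A2 (chromosome 1, 36095239 to 36126207) was at 1.34, 1.12 and 1.19 FPKM in MRC5_Mo, at 1.23, 1.31 and 1.45 in MRC5_CoH69 and at 2.74, 3.10 and 3.11 in MRC5_CoH196. It was 2.77-fold higher (log2 fold change 1.47 ± 0.10, adjusted p = 3.67e-12) and did not overlap with either other group. Its partner COL8A1 was the far more abundant chain, with means of 36.1 FPKM in MRC5_Mo and 40.7 in MRC5_CoH196, and had 0.34 ± 0.04 (adjusted p = 1.64e-07). COL8A2 rose from a low level and COL5A3 fell from one, and the bases around their starts are shown side by side because the data give opposite directions for chains of like abundance. The windows run from 250 bases before to 50 after the start in RefSeq (GRCh38.p14), COL8A2 at chr1:36125173-36125472 on the minus strand and COL5A3 at chr19:10010455-10010754 on the minus strand, with capitals where a CCAAT box, a GC box (GGGCGG) or a TATA box (TATAAA) was found on either strand.
COL8A2: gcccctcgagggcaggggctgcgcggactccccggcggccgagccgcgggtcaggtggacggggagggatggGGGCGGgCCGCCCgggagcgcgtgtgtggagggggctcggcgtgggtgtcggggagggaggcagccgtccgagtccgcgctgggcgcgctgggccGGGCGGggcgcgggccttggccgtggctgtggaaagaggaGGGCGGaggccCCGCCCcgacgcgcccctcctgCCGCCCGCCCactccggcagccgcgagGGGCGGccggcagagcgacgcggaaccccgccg
COL5A3: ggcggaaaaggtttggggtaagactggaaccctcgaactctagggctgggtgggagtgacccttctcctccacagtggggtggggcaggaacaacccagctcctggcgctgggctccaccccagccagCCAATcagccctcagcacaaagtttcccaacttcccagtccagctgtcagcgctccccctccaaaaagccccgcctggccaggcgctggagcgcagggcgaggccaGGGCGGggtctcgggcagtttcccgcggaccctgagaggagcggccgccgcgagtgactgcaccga
The GC box was in both windows and, of these windows, the CCAAT box only in that of COL5A3. Among the other risen chains, the CCAAT box was in the windows of COL11A1 and COL4A2. It was not in those of COL6A2, COL13A1 and COL15A1. COL5A3 was the only fallen chain whose window was used here, and a link between motif and direction was not tested. Over all 35116 windows of this length in the table, the GC box was in 45%, the CCAAT box in 34.6% and the TATA box in 11.5%. The table held 41 windows for 30 of the 41 collagen genes, some of them overlapping, and of these windows 23 held the GC box, 13 the CCAAT box and 7 the TATA box, or 56.1%, 31.7% and 17.1%. Those for COL1A1, COL1A2, COL3A1, COL5A2, COL6A1 and COL8A1 were not used here.

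Of the other chains, COL15A1 and COL13A1 rose. COL15A1 (chromosome 9, 98943337 to 99070787), a proteoglycan collagen found beneath basement membranes, was at 5.53, 4.48 and 4.36 FPKM in MRC5_Mo, at 4.62, 4.3 and 4.70 in MRC5_CoH69 and at 7.55, 7.59 and 7.65 in MRC5_CoH196, with 0.84 ± 0.07 (adjusted p = 9.67e-11). COL13A1 (chromosome 10, 69801835 to 69966401), a collagen that spans the cell membrane at adhesion sites, was at 17.8, 17.0 and 18.7 FPKM in MRC5_Mo, at 16.5, 17.4 and 15.1 in MRC5_CoH69 and at 25.65, 25.66 and 24.3 in MRC5_CoH196, with 0.66 ± 0.06 (adjusted p = 8.25e-11). For both, the MRC5_CoH196 libraries were above all others. The call for COL13A1 was lost with library totals alone (0.49) and on either FPKM scale (0.48 and 0.50), as was that for COL6A1 (0.51 in each), and the call for COL15A1 was lost on log2(FPKM + 1) (0.58, under the limit). The FACIT chain COL14A1 (chromosome 8, 120124467 to 120373573), which binds to the surface of fibrils, fell from a low level. It was at 1, 0.78 and 0.57 FPKM in MRC5_Mo, at 0.85, 0.59 and 0.89 in MRC5_CoH69 and at 0.03, 0.06 and 0.08 in MRC5_CoH196, a log2 fold change of -3.62 ± 0.28 (adjusted p = 2.2e-11) that rests on 5 to 12 counts beside H196. It was the lowest fold change of the 29 chains in edgeR, but on log2(FPKM + 1) it was -0.75, above the -2.25 of COL3A1. COL12A1, a FACIT chain of much higher level, was at 172, 159 and 153 FPKM in MRC5_Mo, at 173, 171 and 177 in MRC5_CoH69 and at 129.7, 135 and 134 in MRC5_CoH196, yet its log2 fold change with TMM factors was only -0.10 ± 0.04 (adjusted p = 0.0439).

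COL7A1, the chain of the anchoring fibrils under epithelia, stood at -0.39 ± 0.05 on the log2 scale (adjusted p = 2.92e-08), and COL18A1, the source of endostatin, had 0.17 ± 0.05 (adjusted p = 0.00211) with overlapping FPKM values and -0.0016 with library totals alone. COL9A2, COL9A3, COL16A1 and COL17A1 did not pass the test, with log2 fold changes from -0.86 (COL17A1) to 0.09 (COL9A2). In all, 22 of the 29 chains had an adjusted p under 0.05, of which 11 did not exceed the limit on the fold change. For all genes tested, the share with an adjusted p under 0.05 at any fold change was not counted. The 22 chains are therefore not set apart from genes at large.

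The type IV chains COL4A1 and COL4A2 were above MRC5_Mo in all libraries of both co-cultures. They make the common network of basement membranes and lie head to head on chromosome 13 with 109 bases between the genes in the tables (COL4A1 from 110137490 to 110307157 and COL4A2 from 110307267 to 110515246, GRCh38.p13). Because the starts are so close, their RefSeq windows (GRCh38.p14, COL4A1 at chr13:110307108-110307407 on the minus strand and COL4A2 at chr13:110307034-110307333 on the plus strand) hold 226 bases in common, given in capitals below, each read along its own strand.
COL4A1: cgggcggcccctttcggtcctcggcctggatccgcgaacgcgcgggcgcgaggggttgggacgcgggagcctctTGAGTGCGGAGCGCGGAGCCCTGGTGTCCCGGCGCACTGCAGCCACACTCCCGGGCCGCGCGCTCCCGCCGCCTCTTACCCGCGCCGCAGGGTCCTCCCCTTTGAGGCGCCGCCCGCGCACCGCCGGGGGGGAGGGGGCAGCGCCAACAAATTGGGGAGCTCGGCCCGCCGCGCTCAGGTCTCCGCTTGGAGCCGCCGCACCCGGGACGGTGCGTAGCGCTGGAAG
COL4A2: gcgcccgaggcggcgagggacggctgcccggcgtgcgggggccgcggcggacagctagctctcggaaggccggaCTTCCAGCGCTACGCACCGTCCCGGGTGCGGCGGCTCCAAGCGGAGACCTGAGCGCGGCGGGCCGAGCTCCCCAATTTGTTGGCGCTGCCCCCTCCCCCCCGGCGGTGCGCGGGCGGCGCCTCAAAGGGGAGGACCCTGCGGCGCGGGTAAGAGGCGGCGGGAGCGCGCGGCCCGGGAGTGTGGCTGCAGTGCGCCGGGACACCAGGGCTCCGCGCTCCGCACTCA
The CCAAT box and the GC box, on one strand or the other, were in both windows, and the TATA box was in neither.

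COL4A2 was at 315, 310.5 and 294 FPKM in MRC5_Mo, at 421, 422 and 416 in MRC5_CoH69 and at 426, 417 and 414 in MRC5_CoH196. COL4A1 was at 214, 208 and 194 FPKM in MRC5_Mo, at 309, 302 and 302 in MRC5_CoH69 and at 243, 252 and 243 in MRC5_CoH196. For COL4A2 the 2 co-cultures lay together above MRC5_Mo, whereas for COL4A1 the libraries with H69 were the highest and those with H196 came between. Beside H196, COL4A2 rose by a log2 fold change of 0.62 ± 0.04 (adjusted p = 4.18e-13). Its call was lost with library totals alone and on either FPKM scale (0.45 in each). COL4A1 had 0.44 ± 0.04 (adjusted p = 7.3e-10), under the limit. The chains COL4A5 and COL4A6, of other basement membranes, had -0.28 ± 0.07 (adjusted p = 9.83e-04) and -0.01 ± 0.12 beside H196.

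The next question was whether the neuroendocrine line H69 acted on the fibroblasts' collagen. COL4A1 alone was a DEG in MRC5_CoH69 against MRC5_Mo, so that 1 of 29 chains rose and 0 fell, or 3.45% and 0%, beside 0.421% higher and 0.133% lower among all genes tested. Its log2 fold change of 0.58 ± 0.04 (adjusted p = 4.69e-10, 1.5-fold) lay just over the limit, and the call was lost without the third library of MRC5_Mo (0.54) or the first of MRC5_CoH69 (0.57) and with DESeq2 size factors. No chain fell by edgeR or by DESeq2, and an unadjusted p under 0.05 with a negative sign was not seen for any of the 29 chains. Besides COL4A1, an adjusted p under 0.05 was reached by COL4A2 (0.47 ± 0.04, adjusted p = 1.41e-08), COL5A1 (0.28 ± 0.05, adjusted p = 2.18e-04), COL5A2 (0.23 ± 0.04, adjusted p = 7.14e-04), COL1A1 (0.18 ± 0.04, adjusted p = 0.0131) and COL11A1 (0.18 ± 0.05, adjusted p = 0.0183). Each of them was above MRC5_Mo in 3 of 3 libraries.

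The collagen sum beside H69 was 8651 ± 102 FPKM, and fibrillar chains held 65.5% ± 0.435 of it, a share that overlapped with that of MRC5_Mo. The share of basement membrane chains was 8.51% ± 0.0462 and did not overlap with the 6.69% ± 0.0882 of MRC5_Mo (exact permutation p = 0.1, the smallest possible). These chains summed to 736 ± 4.65 FPKM beside H69, above the 674 ± 6.93 beside H196. Their share was nevertheless higher beside H196, where the collagen sum was 5791 ± 55.3 FPKM.

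The co-cultures were also set directly against each other. In MRC5_CoH196 against MRC5_CoH69, 5 chains were higher (COL8A2, COL15A1, COL6A2, COL13A1 and COL6A1, with log2 differences from 1.33 to 0.66) and 6 were lower, or 17.2% and 20.7% of the 29, beside 15.2% and 13.1% of all genes tested. The 6 lower chains were COL14A1 (-3.61 ± 0.28), COL3A1 (-2.22 ± 0.05), COL1A1 (-1.75 ± 0.04), COL5A3 (-0.84 ± 0.09), COL5A2 (-0.78 ± 0.04) and COL1A2 (-0.68 ± 0.04), 5 of them fibrillar. COL4A1 was lower beside H196 than beside H69 by a small margin (-0.15 ± 0.04, adjusted p = 0.00215), with no overlap in FPKM, while COL4A2 overlapped (0.16 ± 0.04, adjusted p = 9.84e-04, and -0.00046 with library totals alone). With library totals alone the split was 4 higher and 7 lower, where 1369 of all genes tested were higher and 2627 lower. COL24A1, at -0.58 ± 0.15 just under the limit, passed it without the second or the third library of MRC5_CoH69 (-0.60 and -0.71) or the second of MRC5_CoH196 (-0.59). This comparison shares its MRC5_CoH196 libraries with the first one.

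Ratios between chains within a library do not depend on the scaling of libraries. COL1A1 exceeded COL1A2 in fibroblasts grown alone, with a log2 ratio of FPKM of 0.41 ± 0.04 (SD, n = 3), and fell below it beside H196, with -0.60 ± 0.05. Beside H69 it was 0.47 ± 0.04. COL5A1 to COL5A2 turned the other way, from -0.55 ± 0.05 in MRC5_Mo to 0.14 ± 0.01 in MRC5_CoH196, with -0.50 ± 0.06 in MRC5_CoH69. COL3A1 to COL1A1 went from -3.34 ± 0.06 to -3.86 ± 0.05, so that COL3A1 was lower relative to COL1A1 beside H196. For type IV, COL4A1 to COL4A2 was -0.58 ± 0.02 in MRC5_Mo, -0.46 ± 0.02 in MRC5_CoH69 and -0.77 ± 0.04 in MRC5_CoH196, higher with one partner line and lower with the other. COL6A1 to COL6A2 went from -1.32 ± 0.00369 to -1.56 ± 0.04 and COL6A3 to COL6A1 from 1.5 ± 0.01 to 1.15 ± 0.07 beside H196. COL8A1 to COL8A2 was 4.89 ± 0.15 in MRC5_Mo and 3.77 ± 0.06 in MRC5_CoH196. None of the 7 ratios overlapped between MRC5_Mo and MRC5_CoH196 (exact permutation p = 0.1 each, the smallest possible, two-sided, and 0.1 after adjustment over the 7).

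**Figure D4:**
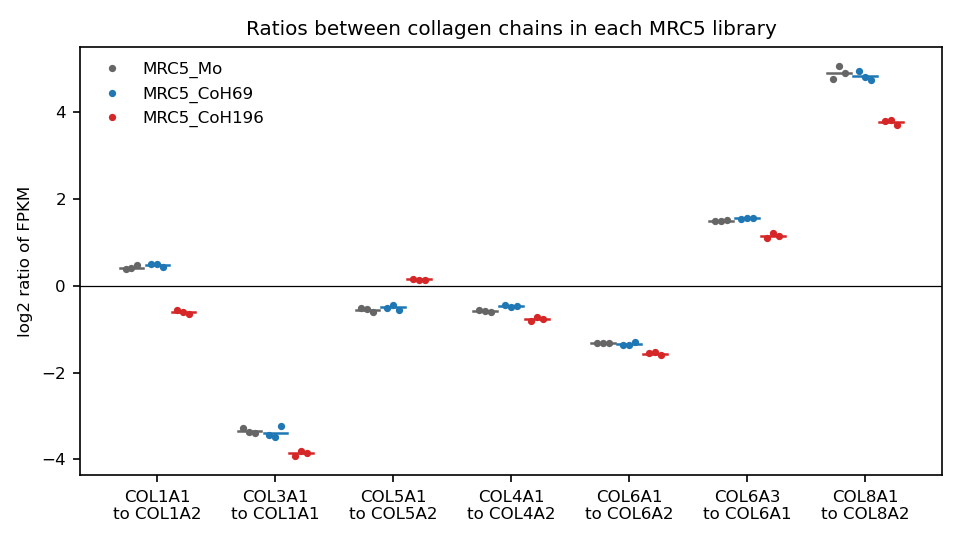
Log2 ratio of FPKM between collagen chains (y axis) for 7 pairs (x axis), of which COL3A1 to COL1A1 are chains of different collagens, in each MRC5 library, as points, with the mean of each group of 3 as a bar. COL1A1 to COL1A2 passes from 0.41 in MRC5_Mo to -0.60 in MRC5_CoH196, and COL5A1 to COL5A2 from -0.55 to 0.14.

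Collagen chains are modified, cut and cross-linked by other proteins before fibrils form. Of 28 such genes on a list of processing enzymes and chaperones, 26 were tested in MRC5, and beside H196 8 rose and 3 fell (median log2 fold change 0.13), where 17.2% of all genes tested were higher and 14.7% lower. LOX, the lysyl oxidase that starts the cross-links, rose most (2.72 ± 0.05, adjusted p = 1.23e-24), and ADAMTS14, which cuts the amino end of procollagens, fell most (-1.58 ± 0.15, adjusted p = 9.19e-10). Of the 9 tested collagen receptors, 5 rose and 1 fell, with a median of 0.59, led by MRC2, an uptake receptor for collagen (0.77 ± 0.04, adjusted p = 2.63e-14), and by the integrin chain ITGA10 on the lower side (-1.09 ± 0.28, adjusted p = 0.00125). Beside H69, 0 of the 26 processing genes were DEGs and 1 of the 9 receptors rose, the integrin chain ITGA1 (0.66 ± 0.05, adjusted p = 2.34e-09).

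H196 cells made little collagen RNA. Their chains summed to 99.4 ± 5.02 FPKM in H196_Mo and 111 ± 6.99 in H196_Co, or 0.0147% ± 6.04e-04 and 0.0157% ± 0.00166 of all FPKM, against the 1.37% of MRC5_Mo. COL6A2, COL18A1, COL6A1 and COL13A1 led the order and 8 of 38 chains were above 1 FPKM in every library of either group. Fibrillar chains held 3.22% ± 0.339 of the sum in H196_Mo and 3.21% ± 0.122 in H196_Co. COL4A1, COL4A2 and COL15A1 were not among the genes listed for H196, so the sums and shares of H196 leave them out.

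The third question was whether H196 cells changed their own collagen beside MRC5. Of 19 tested chains 1 rose and 0 fell, or 5.26% and 0%, beside 3.26% higher and 0.601% lower among the 12806 genes tested in H196. COL17A1 (chromosome 10, 104030810 to 104119255), the membrane collagen of hemidesmosomes, was the one that rose. It was at 0.62, 0.37 and 0.42 FPKM in H196_Mo, from 34 to 53 counts, and at 0.88, 0.68 and 0.79 in H196_Co, from 61 to 81 counts. The groups did not overlap, and its log2 fold change was 0.82 ± 0.19 (adjusted p = 0.00498), or 0.28 on log2(FPKM + 1), where it was under the limit. COL6A2 was at 31.8, 34.9 and 33.6 FPKM in H196_Mo and at 37.6, 41.0 and 42.4 in H196_Co, without overlap, with 0.35 ± 0.07 (adjusted p = 0.00211). COL7A1 (0.35 ± 0.11, adjusted p = 0.033) and COL13A1 (0.30 ± 0.10, adjusted p = 0.0343) also reached an adjusted p under 0.05 below the limit on the fold change. The 19 chains that did not pass the filter had at most 14 counts in any H196 library, and a change in them was not detectable at this depth.

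**Figure D5:**
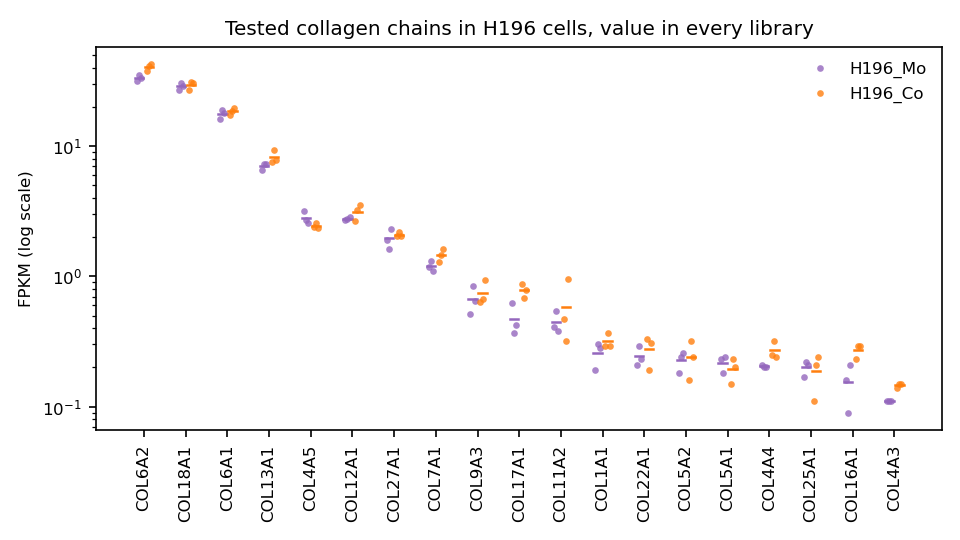
FPKM (y axis, log scale) of the 19 tested collagen chains (x axis, by level) in each H196 library, as points, with the mean of each group of 3 as a bar. COL6A2, with a mean of 33.4 FPKM in H196_Mo, and COL18A1 are the highest. The points of H196_Co lie above those of H196_Mo without overlap for COL6A2, COL13A1, COL17A1, COL16A1, COL4A3 and COL4A4. Of these, COL16A1, COL4A3 and COL4A4 did not pass the test (edgeR, adjusted p = 0.117, 0.249 and 0.147). The share of all genes without overlap was not counted.

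Of the processing genes, 24 were tested in H196, where 7 rose, 0 fell and 17 were not DEGs, beside 3.26% higher and 0.601% lower among all genes, with P4HA3, a chain of prolyl 4-hydroxylase, first (1.29 ± 0.35, adjusted p = 0.0141), and 0 of 8 receptors were DEGs.

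The response to the shared culture differed between the lines for 5 of the 15 chains that could be compared, each lower in MRC5 than in H196 (edgeR, contrast of the 2 responses over all 15 libraries). Those 5 are 33.3% of the 15 chains, which had passed the low-count filter in each line's own model, and 0 chains were higher. Among all 13585 genes of the model with 15 libraries, 12.6% were lower and 12.1% higher. Those genes were not held to the filter in each line, so the shares are not of like sets. COL1A1 had the largest difference, -2.0 ± 0.24 (adjusted p = 6.52e-08), from a response of -1.57 in MRC5 and 0.41 in H196, where it had only 17 to 35 counts. COL17A1 followed with -1.71 ± 0.48 (adjusted p = 0.004), then COL16A1 with -0.84 ± 0.31 (adjusted p = 0.033), COL7A1 with -0.77 ± 0.11 (adjusted p = 1.42e-06) and COL5A2 with -0.71 ± 0.24 (adjusted p = 0.0166). COL16A1 had 6 to 16 counts in H196 and COL5A2 had 16 to 31. Without the second library of H196_Co both calls were lost (-0.80 and -0.45), which left 3 chains. The call for COL5A2 was also lost without the first library of H196_Mo (-0.57), and that for COL16A1 without the second of H196_Mo (-0.62), the third of H196_Co (-0.75) or the second or the third of MRC5_CoH196 (-0.78 and -0.76). COL6A2 (0.55 ± 0.09) and COL6A1 (0.52 ± 0.09) rose more in MRC5 (adjusted p = 4.97e-06 and 2.18e-05) but stayed under the limit of 0.58, which both passed without the first library of H196_Mo or the second of MRC5_CoH196. COL6A2 alone passed it without the first of MRC5_Mo, the first or the third of MRC5_CoH196 or the third of H196_Co (0.59 to 0.60).

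The 2 lines grown alone were last set against each other in one model of the counts, with levels from separate tables. All 30 chains tested were called, 24 lower and 6 higher in H196_Mo than in MRC5_Mo, or 80% and 20%, beside 30.2% and 31.5% of all genes tested. A chain could pass the low-count filter of this model through the line where it is high alone, which made its call near certain. The counts are therefore no test of the chains as a set. Of the 30, 15 had passed the filter in each line's own model. COL1A2, at 0 counts in each H196_Mo library against 162590 or more in MRC5_Mo, was at least 50677-fold lower. COL5A3, also at 0 counts, was at least 83.1-fold lower. Both bounds take 3 counts per library as the floor and are scaled by library totals alone. COL3A1 had at most 1 count in an H196_Mo library and at least 23427 in one of MRC5_Mo. COL6A2 was 29.6-fold lower (-4.89 ± 0.07), COL6A1 22.2-fold (-4.48 ± 0.07), and COL18A1 2.06-fold (-1.04 ± 0.06). The smallest gap was that of COL11A2 (-0.78 ± 0.22, adjusted p = 0.00156), whose FPKM values overlapped.

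The 6 chains that were higher in H196_Mo had low levels in both lines. They were COL4A3, COL4A4, COL22A1, COL25A1, COL17A1 and COL9A3, with means of 0.11 to 0.67 FPKM in H196_Mo. COL4A3, at 0 counts in each MRC5_Mo library and at 12 to 13 in H196_Mo, was at least 4.64-fold higher by library totals alone. The TMM factors of the model, larger in H196_Mo than in MRC5_Mo, would lower this bound. COL4A4, its head-to-head neighbour with 106 bases between the genes on chromosome 2, had a log2 difference of 2.96 ± 0.36 (adjusted p = 1.18e-08) and 28 to 31 counts in H196_Mo. MRC5 and the SCLC lines were maintained in different media, so cell line, medium and table cannot be told apart in this comparison. With library totals alone the median over all genes tested was 0.45 in place of 0.03.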

How the data were processed

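mRNA captured with oligo(dT) beads was sequenced by the authors on the BGIseq-500 in 3 parallel replicates for each of 5 groups. Reads passed SOAPnuke, then HISAT for the genome (GRCh38.p13) and Bowtie2 for gene sequences, and the submitters' processing notes name HISAT2 2.1.0, Bowtie2 2.3.4.3 and RSEM 1.3.1. The deposited tables hold expected counts, which are not normalized and can divide a read among genes. They also hold FPKM, scaled by the authors to gene length and sequenced fragments. TPM and normalized counts (30 columns) were not used here, nor were the authors' own comparisons, which are fold changes with p-values and q-values. The collagen genes, the class, processing, receptor and marker lists and the comparisons were chosen with earlier results of these data known.

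Expected counts were rounded and fitted in edgeR 4.0.16 (R 4.3.3) by quasi-likelihood with TMM factors (0.916 to 1.05 in the MRC5 model) and filterByExpr, one model for 9 MRC5 libraries, one for 6 H196 libraries and one for all 15, with two-sided tests adjusted by Benjamini-Hochberg over all genes tested. A DEG had an adjusted p under 0.05 and a log2 fold change above 0.58 in size. SE was obtained as log2 fold change over the root of the F statistic. Class shares and chain ratios were compared by exact permutation tests. As nothing says that replicates came from separate cultures, p-values measure the spread between these libraries, which may be technical. The fits were tested on simulated data, where edgeR recovered 98 of 100 genes changed by 1 and 100 of 100 changed by 2 (log2) among 12747 genes for MRC5_CoH196 against MRC5_Mo, with 0 false calls. False calls were 3 among 12811 genes for H196_Co against H196_Mo and 4 among 13540 for the difference between the lines' responses. In the measured libraries, 2207 genes were higher and 1885 lower in MRC5_CoH196 against MRC5_Mo. Recovery with that many changed genes was not tested. Genes with few counts were not tested separately. Values per library are given for chains that were a DEG in any comparison within a line or had a mean of at least 100 FPKM in a group, the rest by range or fold change, and processing and receptor genes only for the largest rise and fall. Alternatives were DESeq2 1.42.0 (size factors and Wald test), limma 3.58.1 on FPKM in log2 with a pseudocount of 1 or 0.1, other count filters, other fold limits, the replicate block, only the groups compared, library totals alone (added after seeing the data) and each library left out. Promoter windows came from RefSeq and protein sequences were not used here.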

Additional observations from a re-analysis of the deposited data

Results flagged for a closer look

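In 5 chains the response to co-culture differed between the lines, by a test of the difference itself (edgeR, MRC5_CoH196 against MRC5_Mo minus H196_Co against H196_Mo). The log2 differences were -2.0 for COL1A1, -1.71 for COL17A1, -0.84 for COL16A1, -0.77 for COL7A1 and -0.71 for COL5A2. COL17A1 was low in both lines, at 0.03 to 0.23 FPKM over the MRC5 libraries of the 2 groups and at 0.37 to 0.88 in H196. It had a log2 fold change of -0.86 ± 0.42 in MRC5 (adjusted p = 0.0697), which did not pass the test, and rose by 0.82 ± 0.19 in H196. COL7A1 had -0.39 ± 0.05 in MRC5 and 0.35 ± 0.11 in H196, each with an adjusted p under 0.05. For COL16A1 the response was -0.03 ± 0.04 in MRC5 and 0.79 ± 0.35 in H196 (adjusted p = 0.548 and 0.117), so that neither line alone passed the test.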

How the results depend on the processing

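COL1A1, COL3A1 and COL5A3 kept their fall in MRC5_CoH196 against MRC5_Mo under 15 of 15 alternatives that left the fold limit as it was, and COL14A1 under 14 of 14. COL8A2 and COL6A2 kept their rise under 15 of 15. The numbers of chains higher and lower in that comparison were 3 and 8 with library totals alone. On the FPKM scales they were 2 higher with log2(FPKM + 1), and 3 and 7 with log2(FPKM + 0.1). Among all 12819 genes tested, 1530 were higher and 2978 lower with library totals alone. Those numbers were 915 and 2082 with log2(FPKM + 1), and 1437 and 2869 with log2(FPKM + 0.1). Of the chains, 12 and 10 were called without a fold limit, 1 higher with a limit of 1, and 4 to 7 lower with a library left out. COL18A1 and COL5A1 turned to -0.0016 and -0.041 with library totals alone, and COL5A1 to -0.029 with log2(FPKM + 1) and -0.029 with log2(FPKM + 0.1). In MRC5_CoH196 against MRC5_CoH69, COL18A1 and COL4A2 turned to -0.017 and -0.00046 with library totals alone, to -0.016 and -0.0019 with log2(FPKM + 1) and to -0.016 and -0.0019 with log2(FPKM + 0.1). There, 10 higher and 13 lower were called without a fold limit and 1 and 3 with a limit of 1. In MRC5_CoH69 against MRC5_Mo, 0 chains were higher with DESeq2 size factors, the DESeq2 Wald test, library totals alone, either FPKM scale and a limit of 1, 6 without a limit, and 0 to 1 with a library left out. In H196_Co, 0 were higher with log2(FPKM + 1) and a limit of 1, and 4 without a limit. For the counts without a fold limit or with a limit of 1, the shares of all genes were not counted. Between the responses of the lines, 1 chain was higher with DESeq2 size factors, the Wald test and 10 counts in every library, 0 to 2 with a library left out, and 3 were lower with log2(FPKM + 1), 3 with 10 counts in every library and 3 to 5 with a library left out. Between the lines grown alone, 0 were higher with log2(FPKM + 1), and 0 higher and 12 lower with 10 counts in every library, where fewer chains were tested. With expected counts in place of FPKM, the fibrillar share differed by -25.2 and -25.1 percentage points between MRC5_CoH196 and MRC5_Mo or MRC5_CoH69, the basement membrane share by 5.73 and 3.74 (and by 1.99 for MRC5_CoH69 against MRC5_Mo), and the share of other types by 19.4 and 21.3. Except where stated by construction, the cause was not tested. With the replicate block, COL1A1 was at -1.57 in MRC5_CoH196 against MRC5_Mo and all 12 counts and 64 single results kept their call. Libraries of the same number correlated from -0.15 to 0.08, so the numbers do not pair them. Depth limits the 11 chains in MRC5 and 19 in H196 with at most 14 counts.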

Other observations

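Chains that are neighbours in the genome did not always move together. COL3A1 and COL5A2 lie 17289 bases apart on chromosome 2, and beside H196 they had log2 fold changes of -2.09 ± 0.05 and -0.55 ± 0.04. COL6A1 and COL6A2 lie 93022 bases apart on chromosome 21 and had 0.68 ± 0.04 and 0.93 ± 0.05. COL4A5 and COL4A6, head to head on chromosome X with 340 bases between them, had -0.28 ± 0.07 and -0.01 ± 0.12, and the level of COL4A5 in MRC5_Mo, 10.3 ± 0.901 FPKM, was above the 1.70 ± 0.286 of COL4A6.

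Between the 2 co-cultures, 8 of 26 processing genes were higher and 3 lower beside H196 than beside H69, where 15.2% of all genes tested were higher and 13.1% lower. LOX was again first (2.25 ± 0.05, adjusted p = 4.8e-23) and ADAMTS14 the lowest (-1.67 ± 0.15, adjusted p = 3.63e-10). Of the receptors, 3 of 9 were higher, led by DDR2, a receptor kinase for fibrillar collagen (0.66 ± 0.04, adjusted p = 4.8e-13), and 1 was lower, ITGA10 (-0.94 ± 0.29, adjusted p = 0.0052).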
